A study of Drosophila melanogaster with 6 samples.

Results

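The genes described here are the 10 Npc1 and Npc2 genes of the fruit fly Drosophila melanogaster, Npc1a, Npc1b and Npc2a to Npc2h, named after their relation to the human genes of Niemann-Pick type C disease. They were chosen by symbol, and all 10 were found among the 17116 genes in the files; 8 of them were among the 8607 genes with enough reads to be tested. RNA was sequenced from the midgut, the digestive and absorptive stretch of the intestine, of 8-day-old females of w1118, a white-eyed stock that serves as the wild type. One group was virgin and the other was mated and taken 3 days after mating, with 3 samples a group and 30 guts pooled in each sample. The labels frame the study as one of changes that reproduction brings to the female intestine.

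Niemann-Pick type C proteins move sterols out of the endosomes and lysosomes in which cells break down what they take up. In the mammalian pathway the small soluble NPC2 protein binds the sterol and hands it to NPC1, a large membrane protein with a sterol-sensing domain, which passes it across the lysosomal membrane. Flies cannot make sterols and must absorb them from food, so the midgut is where sterol enters the animal, and sterol is also the starting material of the hormone ecdysone. In the fly, Npc1b is known for sterol absorption in the midgut, whereas Npc1a is used more widely, including in ecdysone production. Npc2a and Npc2b are known to act together in sterol balance, and Npc2a, Npc2e and Npc2h proteins have also been found to bind bacterial cell wall products.

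The libraries held between 15902696 and 29021297 reads in genes, so for a gene with 0 counts a level of up to 0.0938 to 0.191 CPM (reads per 1000000 scaled gene reads) is still allowed. That limit covers counting error only. All 8 enterocyte markers looked up were detected, including nub and Myo31DF, with a summed level of 24330 to 27724 CPM in virgin and 48945 to 60697 CPM in mated libraries. Of the 8, 1 passed the test, the Jonah protease gene Jon65Aiv, which makes up most of that sum and rose from 23645 ± 1706 to 52484 ± 5809 CPM (edgeR adjusted p = 0.00111). The summed level of 3 Malpighian tubule markers ranged from 3.68 to 9.07 CPM in virgin and from 23.0 to 54.0 CPM in mated libraries. Of the 3, only Uro passed the test, and it made up most of the mated sum. Irk1 (3.49 ± 1.08 and 6.95 ± 1.99 CPM) and CapaR (0.852 ± 1.12 and 1.08 ± 0.454 CPM) did not pass. The sum of 4 visceral muscle markers ranged from 733 to 933 CPM in virgin and from 1382 to 2153 CPM in mated libraries, with 3 of the 4 passing. All of these 7 markers were detected, and the part of any of these cell types in the values below was not tested. Germ line markers (vas, osk, nos and bam) summed to 31.6 CPM in virgin 2 and to at most 1.40 CPM in the other libraries.

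Per kilobase of exon, counting each exon base of any transcript once, most of the family's RNA came from 4 genes. In CPM per kilobase of exon, the virgin level was 396 ± 110 for Npc2f, 369 ± 55.9 for Npc2d, 273 ± 88.6 for Npc2e and 124 ± 39.3 for Npc1b (SD, n = 3). The spreads of the first 3 overlapped, so their order was not resolved, and each lay at a percentile of 96.4 to 97.0 among the 8061 tested genes with a known length, by its mean over the 6 libraries. Npc2a followed at 36.1 ± 11.7, then Npc2b at 9.69 ± 2.16 and Npc1a at 7.27 ± 1.17 CPM per kilobase, whose spreads also overlapped. Npc2h, Npc2c and Npc2g were each below 1 CPM per kilobase. In mated midguts the levels were 402 ± 93.6 for Npc2d, 331 ± 58.8 for Npc2f, 311 ± 57.0 for Npc2e, 105 ± 4.94 for Npc1b and 61.9 ± 2.65 for Npc2a. Npc1a (9.80 ± 0.988), Npc2b (8.06 ± 1.42) and Npc2c (7.37 ± 0.550) then lay close together, above Npc2g (1.04 ± 0.513) and Npc2h (0.244 ± 0.158).

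Within the pair of Npc1 genes, Npc1b gave 94.1 ± 1.81% of the summed CPM per kilobase in the virgin group and 91.5 ± 0.889% in the mated group (SD, n = 3). Its level per kilobase was 18.9, 11.6 and 20.6 times that of Npc1a in the virgin libraries and 12.1, 9.60 and 10.7 times in the mated ones. These ranges overlapped through virgin 2. The exon length was 5198 bases for Npc1a, over 7 transcripts, and 3971 for Npc1b with 1 transcript. Their coding lengths were 3861 and 3762 bases, so the ratios depend on the length used. Among the Npc2 genes, Npc2d, Npc2e and Npc2f gave 35.0, 24.7 and 36.0% of the virgin total and 35.8, 27.8 and 29.4% of the mated total. The share of Npc2c, the smallest but one by virgin mean, went from 0.0430 ± 0.00510% to 0.661 ± 0.0914%. Its virgin share rests on at most 10 counts a library. The summed Npc2 level was 1085 ± 159 and 1122 ± 95.7 CPM per kilobase in virgin and mated libraries. The summed Npc1 level was 131 ± 39.9 and 115 ± 5.04. Both sums differed by less than their virgin spread, though the Npc1 sums differed by more than the mated spread of 5.04.

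**Figure D1:**
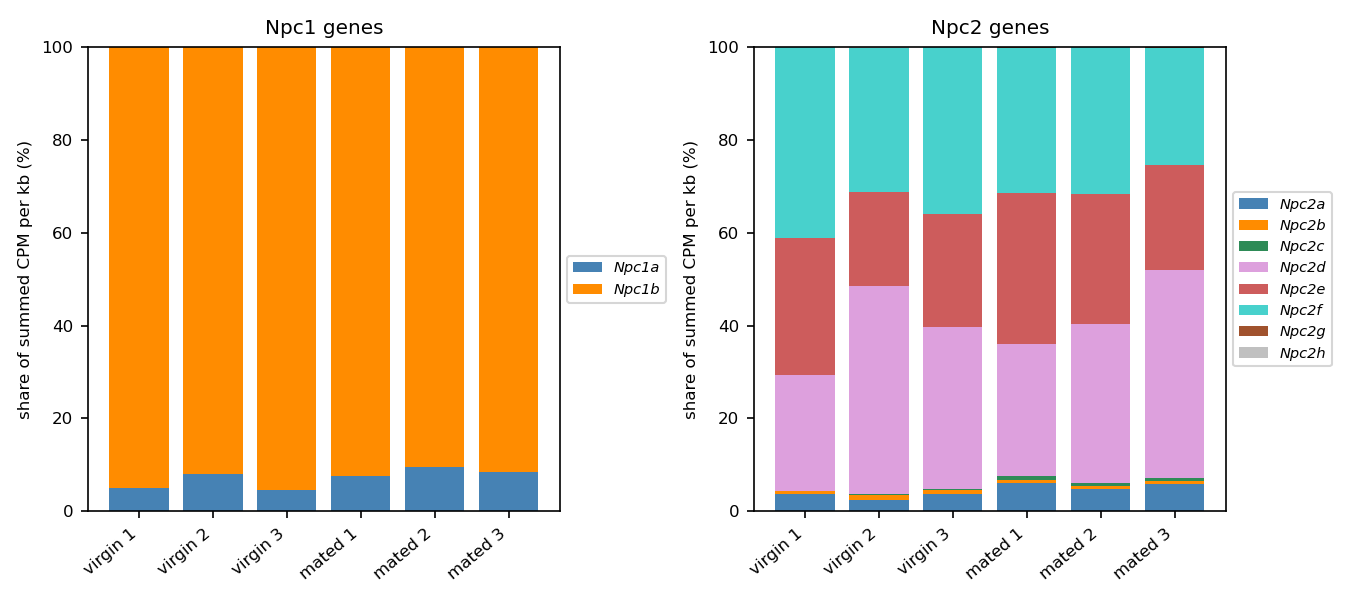
Share of the summed CPM per kilobase of exon (vertical axis, %) given by each Npc1 gene (left) and each Npc2 gene (right) in each of the 6 libraries (horizontal axis). Npc1b fills 90.6 to 95.4% of each left-hand bar, and Npc2d, Npc2e and Npc2f fill most of every right-hand bar in both groups.

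Npc2c was the member that rose in mated midguts, from a trace to a low but clear level. It had 10, 10 and 6 counts in the 3 virgin libraries and 124, 79 and 94 in the mated ones. This came to 0.332, 0.313 and 0.335 CPM in virgin midguts and 5.67, 5.03 and 4.96 CPM in mated midguts. Every mated library thus lay far above every virgin library, and libraries of the same group were close to each other. For this gene the low-count filter, described below, set the order of the groups but not the size of the gap. With at most 10 counts in a virgin library, counting error limits how well the virgin level is known, however close the 3 values are. The log2 fold change was 3.98 ± 0.47 (SE), or 15.8-fold with a 95% interval of 7.75 to 32.1 (edgeR's quasi-likelihood test, Benjamini-Hochberg adjusted p = 0.000836), the 31st smallest p among all 8607 tested genes. Of the 8 tested members, 1 was higher and 0 were lower, and 3 had an unadjusted p below 0.05. Among all tested genes 4.10% passed the adjusted threshold of 0.05, 2.47% higher and 1.63% lower in mated midguts, and 17.2% had an unadjusted p below 0.05. With 8 members, 1 call is too few to read against those shares.

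The virgin levels of Npc2c lay below the 0.435 CPM that the low-count filter asked for in 3 libraries, so it entered the test only through the mated libraries. Of the tested genes, 16 had no virgin library above that level, and 5 of these were higher in mated midguts. Without the filter the result for Npc2c was nearly the same (log2 fold change 3.99 ± 0.52, edgeR adjusted p = 5.97e-05). It passed in each of the 6 fits that left out 1 library, with log2 fold changes of 3.92 to 4.03 and adjusted p of 0.00207 to 0.00859. The tubule marker Uro, urate oxidase, also rose, from 2.46 ± 1.23 to 26.9 ± 16.1 CPM (edgeR adjusted p = 0.0363). The tubule markers Irk1 and CapaR did not pass, and the part of tubule tissue in the Npc2c result was not tested. In bulk tissue, more cells of a type and more RNA per cell cannot be told apart.

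**Figure D2:**
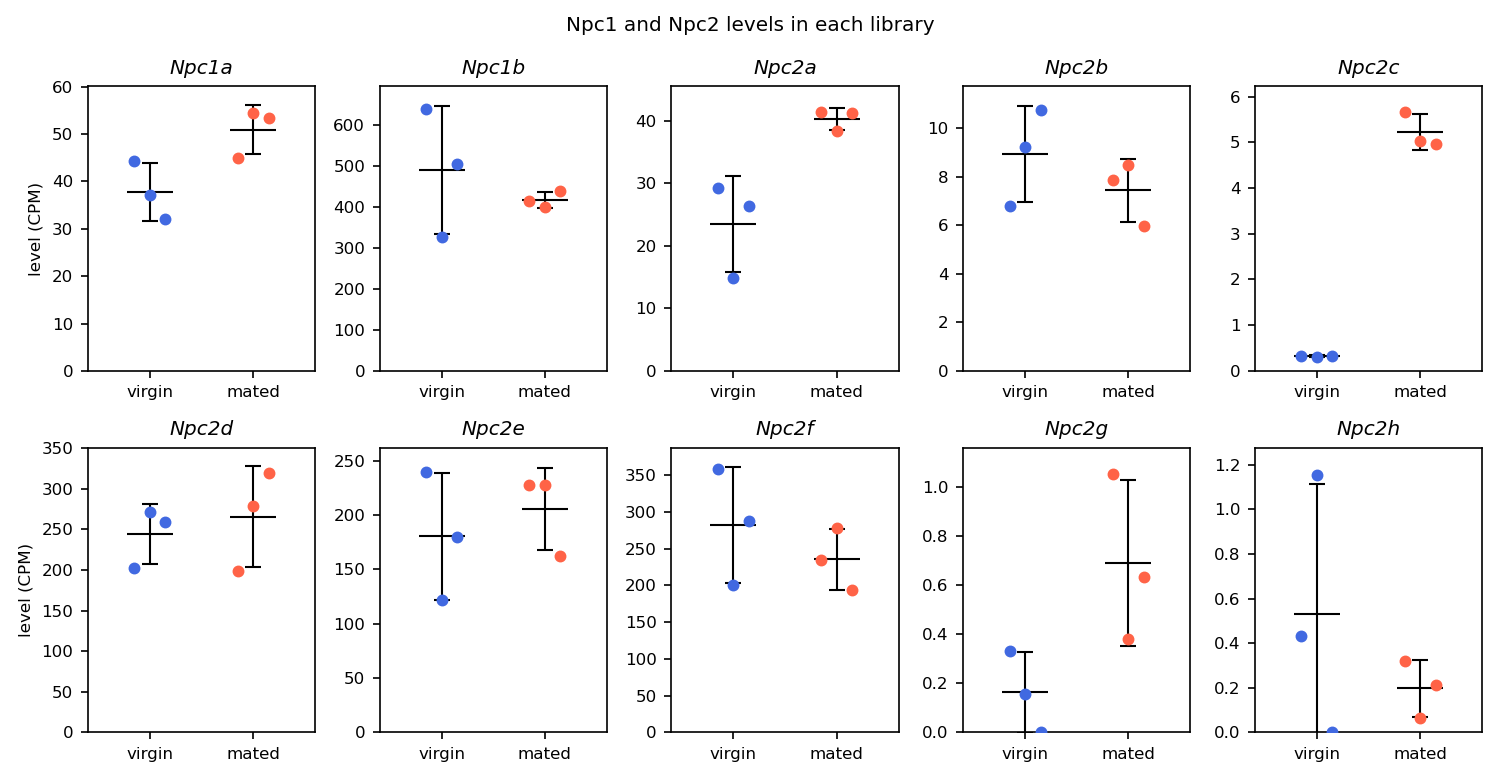
Level of each of the 10 genes in CPM (vertical axis, linear and starting at 0, with its own scale in each panel) in virgin and mated midguts. Points are single libraries, horizontal lines the mean and bars the SD of 3 libraries, cut at 0 for Npc2g and Npc2h; the 3 mated points of Npc2c sit near 5 CPM, all above the virgin points near 0.3.

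In scaled CPM, Npc2a and Npc1a, the more widely used members of each family, were higher in every mated than in every virgin library. Neither passed edgeR's test over all genes. Npc2a stood at 29.3, 14.8 and 26.4 CPM in the virgin libraries, with virgin 2 the lowest, and at 41.4, 38.3 and 41.2 CPM in the mated ones. Its log2 fold change was 0.78 ± 0.22, or 1.72-fold with an interval of 1.22 to 2.42 (edgeR's adjusted p = 0.0896). It did not pass in any of the 6 fits that left out 1 library (edgeR adjusted p of 0.0645 to 0.227), whereas DESeq2 passed it (adjusted p = 0.0200). Npc1a stood at 44.2, 37.0 and 32.1 CPM in the virgin libraries and at 45.0, 54.4 and 53.4 CPM in the mated ones. The gap between its groups, from virgin 1 to mated 1, was narrow. Its log2 fold change was 0.43 ± 0.15, or 1.35-fold with an interval of 1.07 to 1.70 (edgeR's adjusted p = 0.171). In the scaled CPM of the main fit, 3 of the 8 tested members, with Npc2c, had every mated library above every virgin one. The reverse held for 0. Npc2c entered the test only through its mated libraries, so its place in this count was set by the filter. Across the tested genes these shares were 11.6% and 12.3%, or 23.9% together. With 8 members, these counts are too few to read against them.

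The main sterol-absorption gene Npc1b showed no difference that stood out from the spread between virgin pools. Its virgin libraries had 639, 328 and 504 CPM and its mated libraries 415, 399 and 438 CPM. The virgin values spanned the mated ones on both sides. The log2 fold change was -0.23 ± 0.21 with a 95% interval on the fold of 0.619 to 1.17 (edgeR adjusted p = 0.624), and it turned to 0.036 without virgin 1. Modest changes in either direction lie within that interval.

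The 3 abundant Npc2 genes overlapped between groups as well. Npc2f stood at 358, 201 and 288 CPM in the virgin libraries and at 235, 278 and 194 CPM in the mated ones (log2 fold change -0.26 ± 0.21, edgeR adjusted p = 0.583). Npc2e stood at 239, 122 and 179 CPM against 227, 228 and 162 CPM (log2 fold change 0.19 ± 0.24, edgeR adjusted p = 0.737). Virgin 2 was the lowest virgin library for both genes, as it was for Npc1b and Npc2a. Npc2d went the other way, at 202, 271 and 259 CPM against 198, 279 and 320 CPM, so that virgin 2 was the highest virgin library (log2 fold change 0.12 ± 0.19, edgeR adjusted p = 0.797). The 95% intervals on the fold of these 3 genes ran from 0.605 to 1.15, from 0.788 to 1.66 and from 0.819 to 1.44. The sign of Npc2d and Npc2e was not stable: with total counts as the only scaling, their log2 fold changes were -0.13 and -0.052, and the median of all genes went from -0.045 to -0.30. In fits that left out 1 library, the sign of Npc2d also turned without mated 3 and that of Npc2e without virgin 2.

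Npc2b, the partner of Npc2a in sterol balance, was low, at 6.81, 9.22 and 10.8 CPM in the virgin libraries and 7.86, 8.46 and 5.96 CPM in the mated ones. The groups overlapped (log2 fold change -0.26 ± 0.26, interval on the fold 0.562 to 1.23, edgeR adjusted p = 0.656).

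**Figure D3:**
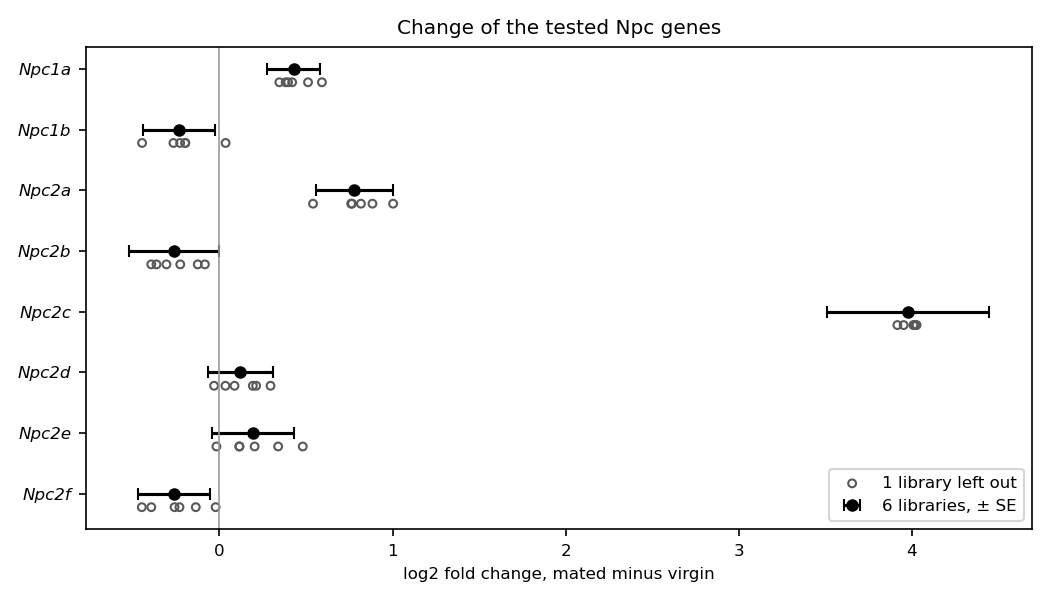
Log2 fold change, mated minus virgin (horizontal axis), of the 8 tested genes (vertical axis). Filled points are the fit on 6 libraries with its SE, and open points the 6 fits that left out 1 library each; Npc2c lies near 4 in all of them, while the points of Npc1b, Npc2d and Npc2e reach both sides of 0.

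Npc2g and Npc2h had too few reads to be tested. Npc2g had 10, 5 and 0 counts in virgin and 23, 6 and 12 in mated libraries, or at most 0.332 CPM and at least 0.382 CPM. Its mated libraries thus lay narrowly above its virgin ones, as did those of 11.6% of the tested genes. For Npc2g that gap rests on 10 counts in virgin 1 and 6 in mated 2, so counting error limits it. Without the low-count filter its log2 fold change was 2.02 ± 1.54 (edgeR's adjusted p = 0.564). Npc2h, one of the members reported to bind bacterial products, had 13, 37 and 0 counts in virgin and 7, 1 and 4 in mated libraries. Its groups overlapped, and virgin 2 held 37 of its 50 virgin reads.

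The Npc2 genes lie largely on one chromosome arm, in small groups of neighbours. In dm6 coordinates, Npc2e (3R, 10053332 to 10054348, plus strand), Npc2d (3R, 10055356 to 10056083, minus strand) and Npc2c (3R, 10060252 to 10061136, plus strand) form one group, with 1007 bases between Npc2e and Npc2d and 4168 between Npc2d and Npc2c. Npc2g (3R, 30744605 to 30745263) and Npc2h (3R, 30745479 to 30746290) lie 215 bases apart on the minus strand. Npc2b (3R, 14089517 to 14092425) and Npc2f (3R, 24137895 to 24140936) stand alone on the plus strand, as do Npc2a (2L, 1988290 to 1988940), Npc1b (X, 20934869 to 20939503) and, on the minus strand, Npc1a (2L, 10213812 to 10221216). Within that group of 3, Npc2c passed, while its far more abundant neighbours Npc2d and Npc2e did not. The genes that follow Npc2c downstream within 6000 bases and are in the files, CG33630, CG33631 and CG33783, had 0 counts in all 6 libraries. In the layout of these files a read is counted when it has 1 placement. Reads with several made up 4.31 to 4.98% of virgin and 5.67 to 7.67% of mated libraries, so any reads shared between near-identical Npc2 stretches are missing from these values.

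Strand mattered for 3 of the Npc2 genes. The annotated antisense RNA asRNA:CR44192 covers 92.4% of the exon bases of Npc2e, and asRNA:CR45205 covers 58.5% of those of Npc2c. When strand was ignored, Npc2e kept 0 of its 14322 virgin reads and 2 of its 11631 mated reads, and Npc2c kept 1 of 26 and 84 of 297, since reads over both genes are then set aside as ambiguous. Npc2c still passed in that column, with a log2 fold change of 6.26 ± 1.25 (edgeR adjusted p = 0.0185) that rests on the 1 virgin read. Scaled for depth, these reads give a mated to virgin ratio of 119 with a 95% counting interval of 20.7 to 4747 (exact binomial), against a fitted 15.8-fold from the strand-specific counts. Its partner asRNA:CR45205 had 0 counts in every library, as did the forward-strand column of Npc2c. The antisense partner of Npc2e was expressed, and it fell from 53.6, 55.6 and 54.4 CPM to 32.8, 38.4 and 37.9 CPM (log2 fold change -0.59 ± 0.13, edgeR adjusted p = 0.0258), while Npc2e itself did not pass. Fancl, a gene of DNA repair on the same strand as that antisense RNA and overlapping its end, fell from 78.7 ± 5.86 to 49.5 ± 6.05 CPM (edgeR adjusted p = 0.0170). Npc2b has no overlapping gene in the Ensembl annotation used here. It had 272 virgin and 234 mated reads on the opposite strand, beside 693 and 418 on its own. Ignoring strand left 882 and 581, fewer than both strands together, so some of its reads were then set aside as well. The annotation used for counting is not given, and the reason these reads were set aside was not tested. The genes beside Npc2c and Npc2e were chosen for their position, and their part in each other's values was not tested.

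**Figure D4:**
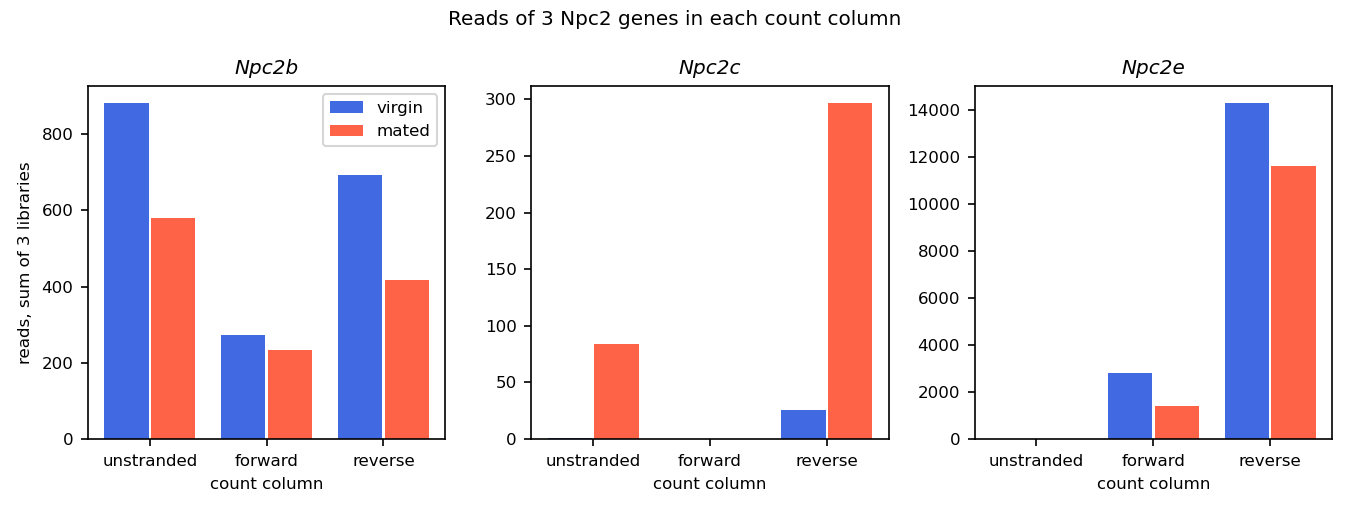
Reads assigned to Npc2b, Npc2c and Npc2e in the unstranded, forward-strand and reverse-strand count columns (horizontal axis), as raw sums over the 3 virgin and 3 mated libraries (vertical axis, starting at 0, own scale in each panel), not scaled for depth. Npc2e has 14322 virgin reads in the reverse-strand column and 0 in the unstranded one.

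Other genes of sterol handling moved in both directions. Of a list of 22, 21 were tested, 1 rose, 2 fell and 18 did not pass, with a median log2 fold change of 0.068 against -0.045 for all tested genes. Of all tested genes 4.10% passed, 2.47% higher and 1.63% lower in mated midguts. The patched gene ptc, a Hedgehog receptor gene whose protein has a sterol-sensing domain like that of Npc1, fell from 40.9, 46.5 and 35.0 to 22.5, 24.1 and 26.1 CPM (log2 fold change -0.75 ± 0.15, edgeR adjusted p = 0.0192). Its groups did not overlap. Among the fits that left out 1 library, its call held only without virgin 3 (edgeR adjusted p up to 0.0862).

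The lipoprotein receptor LpR1, which takes up lipid carriers from the blood, rose in all 6 fits that left out 1 library (log2 fold change 0.94 ± 0.17, edgeR adjusted p = 0.00931). LpR2, its close relative, measured 97.6, 84.8 and 112 CPM in virgin and 82.7, 48.3 and 49.1 CPM in mated midguts without passing (log2 fold change -0.71 ± 0.21, edgeR adjusted p = 0.112). Its mated libraries all lay below its virgin ones, and it was called lower with DESeq2, with scaling by library size alone, without mated 1, and without virgin 2 and mated 1 together. The digestive lipase mag, which also splits cholesterol esters in the gut, fell from 2783 ± 398 to 1735 ± 256 CPM (edgeR adjusted p = 0.0372), a call that held only without virgin 3 or without mated 1 among the fits that left out 1 library. Of the regulators, the nuclear receptor Hr96, known to control mag and Npc1b, had 60.2 ± 11.5 and 63.1 ± 1.83 CPM (edgeR adjusted p = 0.860), and none of the 5 regulators passed. All 4 genes of sterol transfer inside cells had positive log2 fold changes without passing, from 0.25 for ScpX to 0.35 for the oxysterol-binding protein Osbp, as had 45.0% of all tested genes. The sterol desaturase gene nvd had 0 counts in all libraries, where up to the limit given above is allowed.

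**Figure D5:**
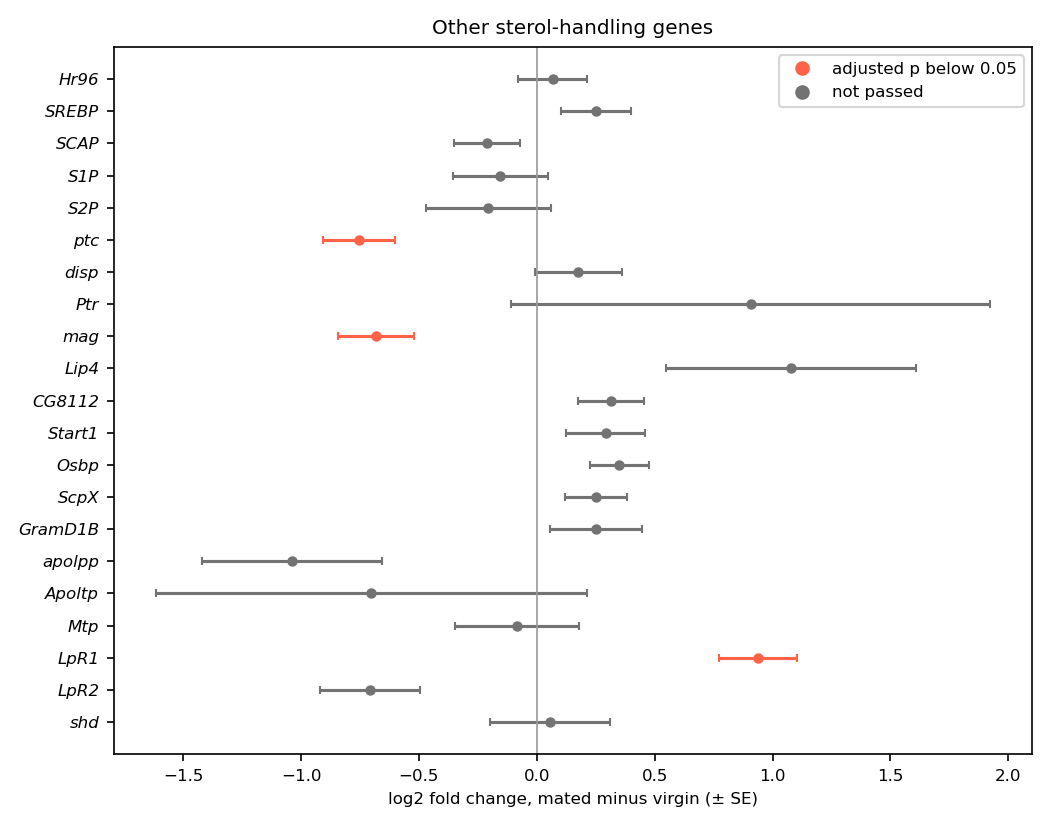
Log2 fold change, mated minus virgin, with its SE (horizontal axis) for the 21 tested sterol-handling genes other than the Npc genes (vertical axis). Red points passed an adjusted p of 0.05, namely ptc and mag on the lower side and LpR1 on the higher side.

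Lysosomal genes, whose products share the compartment in which NPC proteins work, showed no call in the main edgeR fit. Of 15 listed, 14 were tested, none passed in that fit, and 4 had an unadjusted p below 0.05, as had 17.2% of all tested genes. DESeq2 called 1 of them higher (Cln7) and 1 lower (Gba1a), and 391 higher and 247 lower among all 8607 tested genes. Their median log2 fold change was -0.040. The smallest p belonged to Gba1a, a glucocerebrosidase gene, at 287, 178 and 273 CPM in virgin and 175, 119 and 124 CPM in mated midguts (log2 fold change -0.82 ± 0.21, edgeR adjusted p = 0.0587). It passed in 8 of 16 other settings, among them DESeq2 and edgeR fits such as that with upper-quartile scaling. Cln7, a lysosomal membrane transporter gene, came next, with 45.9 ± 4.12 and 65.2 ± 11.0 CPM (edgeR adjusted p = 0.0924). The abundant Lamp1, a lysosomal membrane protein gene, had 496 ± 61.8 and 483 ± 104 CPM.

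Among all tested genes, those whose log2 CPM followed Npc2c most closely over the 6 libraries were asRNA:CR43959 (Pearson r = 0.997), the Jonah protease gene Jon44E (r = 0.997) and CG31041 (r = 0.996). Jon44E went from 107 ± 7.43 to 516 ± 63.7 CPM. These genes share the split between virgin and mated libraries, which alone gives a high r for any gene that separates them cleanly. For Npc2d, the member with the highest mean CPM per kilobase over the 6 libraries, they were CG12942 (r = 0.985), the mucin gene Muc18B (r = 0.972) and CG5828 (r = 0.969), none of which passed.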

How the data were processed

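The deposited values are raw counts of reads per gene, in 1 file for each library, as STAR writes them, with unstranded, forward-strand and reverse-strand columns. The kit was a stranded TruSeq mRNA kit after TRIzol extraction, per the labels' protocols. The submitters' processing notes name the tools STAR, CASAVA 1.8.4 and DESeq2 1.42.0 and the build dm6 without saying what each did. The reverse-strand column was analysed; summary rows stayed out. Of the reads of both strand columns, 1.86 to 2.32% stood in the forward one.

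In R 4.3.3, edgeR 4.0.16 (filterByExpr, TMM, robust glmQLFit, glmQLFTest with group as the only term, two-sided) tested 8607 genes, with Benjamini-Hochberg adjustment over all and a threshold of 0.05. CPM use TMM-scaled library sizes, and exon lengths and positions come from the Ensembl annotation in dm6 coordinates. Standard errors derive from the F statistic, and 95% intervals use the degrees of freedom of that test. The pipeline was tested on simulated counts in which all genes had the same biological variation. It recovered 2% of 1.5-fold, 24% of 2-fold, 94% of 4-fold and 94% of 8-fold changes. In such counts, most changes of 2-fold or less are thus missed. Libraries of a group differed by more than sampling noise (chi-square per degree of freedom at least 23.3). Nothing in the labels tells if the pools were raised separately, so a p-value covers only the spread seen among them, which may be technical.

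The members and gene lists were chosen with earlier results of these data known. Named genes are all members, the list genes that passed or the 2 with the smallest p, and the 3 genes most like Npc2c and Npc2d; LpR2, Hr96, ScpX, Osbp, Lamp1, nvd, Uro, Jon65Aiv and the genomic neighbours were added after their values were seen. A further gene first written for the sterol-handling list is not reported here, so that list holds 22. Older symbols were matched through RefSeq synonyms. No sequence is shown. Alternatives were other scalings, filters, tools (DESeq2 1.42.0, limma-voom with limma 3.58.1), columns, thresholds, the replicate number as a block, and libraries left out.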

Additional observations from a re-analysis of the deposited data

Results flagged for a closer look

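Reads on the strand opposite to the gene, in the forward-strand column that the comparison does not use, came to more than the 3 counts that a count of 0 allows for 6 of the 10 genes. Npc2e had 4199 such reads over the 6 libraries, 16.3% of the reads of both strands in virgin and 10.7% in mated libraries; asRNA:CR44192 is annotated on that strand. Npc2b had 506, or 28.2% in virgin and 35.9% in mated libraries. No gene overlaps it on either strand in the Ensembl annotation used here, although its unstranded counts were lower than both strands together. The nearest gene there, CCHa1, lies 78 bases away on the opposite strand and had 13.1 ± 3.07 and 14.3 ± 0.850 CPM. Npc1b had 228, Npc2f 21, Npc1a 20 and Npc2d 16, each under 0.5% of the reads of both strands.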

How the results depend on the processing

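Of 127 refits of the 8 tested genes, 120 kept direction and side of the threshold. Npc2c passed in all 16, and Npc2a also passed with DESeq2. Scaled by library size alone, Npc2d was at -0.13 and Npc2e at -0.052, both with the sign turned, as was Npc2e without virgin 2 and mated 1 together (-0.10). Leaving out 1 library gave -0.45 to 0.036 for Npc1b, positive without virgin 1, -0.031 to 0.30 for Npc2d, negative without mated 3, and -0.017 to 0.48 for Npc2e, negative without virgin 2. The cause was not tested. Npc2e could not be fitted in the unstranded column. The number of members higher was 2 with DESeq2 or at an adjusted p below 0.1. Over all genes, DESeq2 called 391 higher and 247 lower and library size alone 146 and 726, against 213 and 140 in the main fit. Upper-quartile scaling called 371 genes in all, no low-count filter 391, and the fit without virgin 2 and mated 1 together 191. Fits that left out 1 library called 169 to 308. Of the other sterol-handling genes, 1 was higher in each setting, while 4 were lower by library size alone, 1 without virgin 2 and mated 1 together, 3 with DESeq2 and 0 to 2 when 1 library was left out. Of the lysosomal genes, DESeq2 called 1 higher and 1 lower; 1 was lower with upper-quartile scaling, no low-count filter, the replicate block, or without virgin 2 and mated 1 together, 2 by library size alone, and 0 to 1 when 1 library was left out. The replicate block left 0 sterol-handling genes lower and called 290 genes in all against 353; same-numbered libraries did not deviate together (r of -0.15, -0.05 and -0.03), so the numbers were not taken as pairs. Npc2g, Npc2h and virgin Npc2c have at most 37 counts a library, so counting error limits their values.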
